A study of Mus musculus with 8 samples.

Results

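Cells remove peroxides, superoxide and reactive quinones with selenoproteins, but also with enzymes that need no selenium, and 10 genes of the second kind were followed in mouse liver by ribosome profiling. They were chosen by gene symbol as Gclc, Gclm, Gsr, Nqo1, Srxn1, Cat, Sod1, Prdx1, Prdx6 and Txn1. Of these, 9 had a line among the 7500 genes of the deposited table, and the footprint level of Sod1, the cytosolic superoxide dismutase, was not analysed here. Ribosome profiling sequences the mRNA stretches that ribosomes protect from nuclease, and the number of such footprints on a coding sequence reflects its translation.

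Liver was taken from male FVB/N mice given a Se-deficient diet from weaning for 6 weeks, either without added selenium (0 Se) or with 0.1 ppm Se as sodium selenite (0.1 Se). For each diet 2 mice were profiled, each as 2 libraries, which makes 8 libraries from 4 animals. The table gives 1 average abundance per gene over the libraries of both diets, as log2 CPM, where CPM stands for counts scaled to the size of the library. Fold changes and p-values between the diets were deposited only as the authors' own comparison and were not used. Every level below is therefore an average over 0 Se and 0.1 Se livers, and no difference between the diets was computed. Without values per mouse there is no replicate error for any level, and no test of a difference between genes could be made.

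The enzymes fall into linked systems. Glutathione is a small thiol made in 2 steps, of which glutamate-cysteine ligase (the catalytic subunit Gclc with the modifier subunit Gclm) carries out the first, and glutathione reductase (Gsr) returns its oxidised form to the reduced one with NADPH. Thioredoxin (Txn1) passes electrons from thioredoxin reductase, itself a selenoprotein, to peroxiredoxins, among other targets. Peroxiredoxins such as Prdx1 and Prdx6 reduce peroxides with a cysteine, and sulfiredoxin (Srxn1) repairs that of Prdx1 when it has been over-oxidised. Catalase (Cat) breaks down hydrogen peroxide with a haem group in peroxisomes, and Nqo1 reduces quinones. Several of these genes are known targets of the transcription factor Nrf2, which is released from Keap1 when thiols are oxidised.

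For members that work through a reactive cysteine, a difference from selenoproteins can be read in the coding sequence. The codons around the reactive cysteine of 5 members are shown with those around the selenocysteine codon of Gpx1, a glutathione peroxidase, all 5′ to 3′ on the coding strand of the mm9 genome. Capitals mark the codons of the reactive cysteines, and in Gpx1 the UGA codon that is read as selenocysteine.
Txn1: gctacgtggTGTggacctTGCaaaatg
Gsr: ggcactTGCgtgaatgttggaTGTgta
Prdx1: tttacttttgtgTGTcccacggagatc
Prdx6: tttaccccagtgTGCaccacagaactt
Srxn1: tcctttgggggcTGCcaccgctatgca
Gpx1: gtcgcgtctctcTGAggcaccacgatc

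Counted from the start codon as 1, the marked codons were 32 and 35 in Txn1, 80 and 85 in Gsr, 52 in Prdx1, 47 in Prdx6, 117 in Srxn1 and 47 in Gpx1. The stretch of Txn1 lies at chr4:57964687-57964713 on the minus strand, in the second coding exon. That of Prdx1 lies at chr4:116364416-116364442 on the plus strand, that of Prdx6 at chr1:163177487-163177513 on the minus strand and that of Srxn1 at chr2:151934797-151934823 on the plus strand, all in the second coding exon of their gene. The Gsr stretch starts at 34764243 on chromosome 8 in the first coding exon and ends at 34779642 in the second, with an intron between. The Gpx1 stretch lies at chr9:108241770-108241796 on the plus strand. None of the 10 genes had an in-frame stop codon before the end of its coding sequence, against 1 in Gpx1, and 9 of 7080 listed genes with a complete coding sequence had any. The absence of such a codon is shared with nearly all listed genes, so it is no trait particular to these enzymes.

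Catalase and the peroxiredoxins had the highest footprint levels per kilobase among the members, though in CPM without scaling by length Gclc, with 447, lay above Prdx6, with 414. Per kilobase of counted coding length, Cat had 3297 CPM and Prdx1 had 2916 CPM, ranks 27 and 32 among the 7500 listed genes. The level per kilobase was 292 times the median of the listed genes for Cat and 259 times for Prdx1, that median being 11.3 CPM per kilobase. Their levels were 1.13-fold apart. Prdx6, which unlike Prdx1 is regenerated mainly by glutathione rather than thioredoxin, had 674 CPM per kilobase and rank 152, 4.33-fold below Prdx1.

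Cat (chromosome 2, 103294006 to 103325317, minus strand, 13 exons) had a log2 CPM of 12.29, or 5024 CPM, over a counted length of 1524 bases. It alone held 63.0% of the 7971 CPM that the 9 members held together. Prdx1 (chromosome 4, 116358149 to 116373427, plus strand) had a log2 CPM of 10.62 over 540 bases. Of the 30-base windows in its counted sequence, 44.6% also occurred in the annotated transcript of Gm7204, so reads from these windows may not have aligned to a unique place and the level of Prdx1 is uncertain. Prdx6 (chromosome 1, 163170243 to 163181350, minus strand) had a log2 CPM of 8.70 over 615 bases, and 10.1% of its windows occurred in Prdx6b. The other 7 members with a line shared 0% of their windows with another gene. Only exact matches were counted, while the authors' alignment allowed up to 2 mismatches, so these shares may be too low.

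Both subunits of glutamate-cysteine ligase stood well above the median gene. Gclm (chromosome 3, 121948475 to 121972902, plus strand, 7 exons) had 421 CPM per kilobase and a log2 CPM of 8.33 over 765 bases. Gclc (chromosome 9, 77602342 to 77642292, plus strand, 16 exons) had 241 CPM per kilobase and a log2 CPM of 8.81 over 1854 bases. The modifier subunit thus had 1.74 times the footprint level per kilobase of the catalytic subunit, while without scaling by length Gclc was the higher, with a CPM 1.39 times that of Gclm. Glutathione synthetase (Gss), which carries out the second step and is no member, had 87.5 CPM per kilobase, 2.76-fold below Gclc. Gsr (chromosome 8, 34762995 to 34808635, plus strand, 13 exons) was lower, with 52.4 CPM per kilobase, a log2 CPM of 6.24 over 1443 bases and rank 1493.

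Thioredoxin and sulfiredoxin lay far apart. Txn1 (chromosome 4, 57956245 to 57969283, minus strand, 5 exons) had 397 CPM per kilobase and rank 274, from a log2 CPM of 6.68 over only 258 bases. Its level per kilobase was 1.06-fold below that of Gclm, and their order turned when 18 further codons were taken off each length. Srxn1 (chromosome 2, 151931252 to 151937112, plus strand, 2 exons) had 13.7 CPM per kilobase and a log2 CPM of 2.48 over 408 bases. Per kilobase it was close to the median of the listed genes, at 1.22 times that median. Without scaling by length it lay below the median, with 5.60 against 15.4 CPM, and 25.7% of listed genes were lower. Prdx1, a substrate that sulfiredoxin repairs, had 213 times the footprint level per kilobase of Srxn1.

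Nqo1 (chromosome 8, 109912125 to 109927106, minus strand, 6 exons) was the lowest of the 9 members. It had 6.58 CPM per kilobase, a log2 CPM of 2.33 over 765 bases and rank 4674, and was the 1 member below the median of the listed genes. Gclm, which has the same counted length of 765 bases, had 63.9 times its level. Srxn1 and Nqo1 had 5.60 and 5.03 CPM, against a smallest value of 1.12 CPM in the table, so that their levels rest on fewer footprints than those of the other members and are the least precise.

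**Figure D1:**
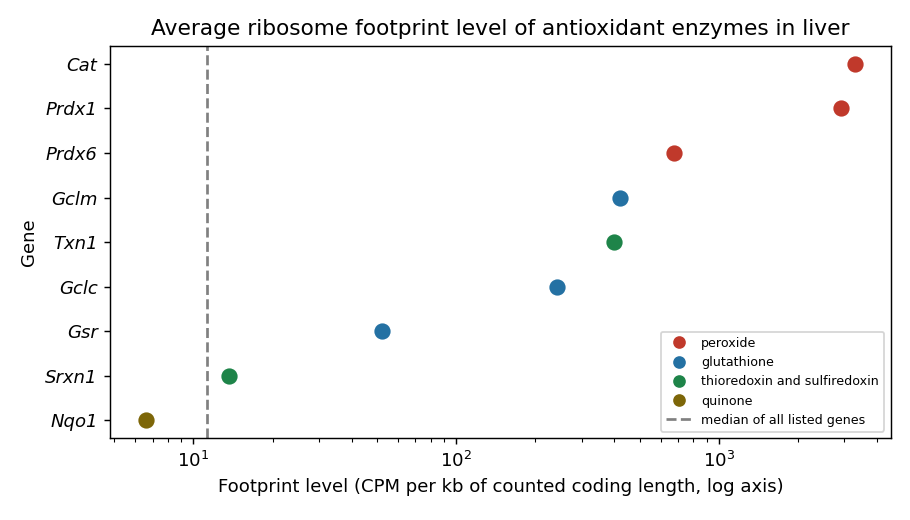
Average footprint level of the 9 members in CPM per kilobase of counted coding length (log axis), 1 point per gene coloured by system, with the median of the 7500 listed genes as a dashed line at 11.3. Cat and Prdx1 lie at the right end, at 3297 and 2916, and Nqo1 alone lies left of the line.

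Over the 9 members, the level per kilobase spanned 501-fold from Nqo1 to Cat, with a median of 397 CPM per kilobase. The share of listed genes with a lower level was 99.6% for Cat and Prdx1, 98.0% for Prdx6, 96.6% for Gclm, 96.3% for Txn1, 94.1% for Gclc, 80.1% for Gsr, 55.0% for Srxn1 and 37.7% for Nqo1. Together the members held 0.930% of the summed CPM of the table. The order among close neighbours, such as Cat and Prdx1 or Gclm and Txn1, has no replicate error to be judged against.

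**Figure D2:**
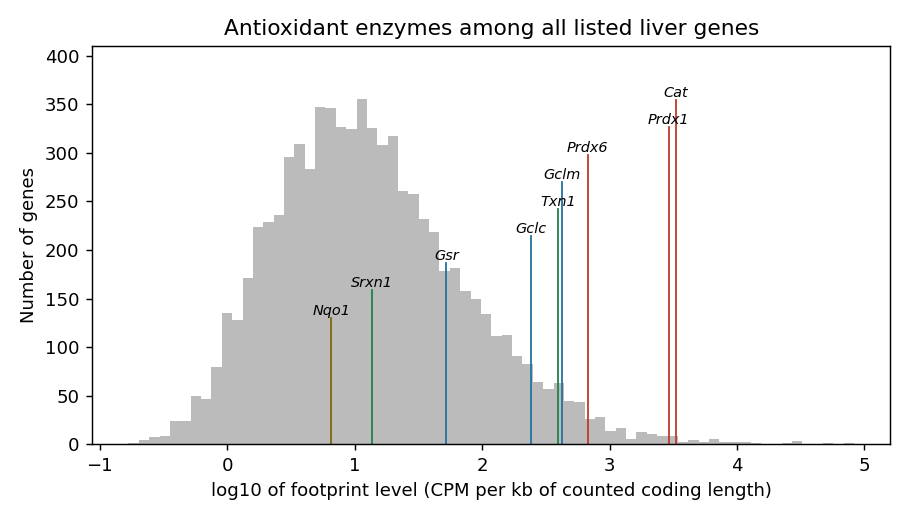
Number of genes by log10 footprint level per kilobase for the 7500 listed genes (grey bars), with a line for each of the 9 members whose height carries no value. The first 6 members by level lie in the right tail, in the top 10% of genes, and Srxn1 and Nqo1 lie near the middle of the distribution.

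Selenium-dependent enzymes of peroxide, thioredoxin and methionine sulfoxide reduction were set beside them. Of 6 such genes, 5 had a line, and Gpx4 was not analysed here. Gpx1 had 1139 CPM per kilobase, so that Cat, which shares hydrogen peroxide with it as a substrate, had 2.89 times its footprint level per kilobase and, without scaling by length, 8.08 times its CPM. Msrb1, a selenoprotein that reduces oxidised methionine, had 972 CPM per kilobase. The cytosolic thioredoxin reductase Txnrd1 had 36.5 CPM per kilobase, and its substrate Txn1, with only 258 counted bases, had 10.9 times that level per kilobase but 1.57 times its CPM. Gsr, the reductase of the glutathione system, had 1.43 times the level of Txnrd1 per kilobase. Txnrd2, the mitochondrial form, had 9.37 and Txnrd3 had 3.58 CPM per kilobase, both below the median of the listed genes. Footprints on a selenoprotein include ribosomes that stop at its UGA, so these levels are not levels of full-length translation.

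Other enzymes of the same systems without selenium were mostly in the upper part of the table as well. Of 14 further peroxiredoxins, thioredoxin-related proteins and methionine sulfoxide reductases, 10 had a line and 9 of these were above the median gene, from Msra with 326 CPM per kilobase down to Nxn with 2.07. The other peroxiredoxins in the table were lower than Prdx1 and Prdx6, and Prdx4, the highest of them, had 260 CPM per kilobase. Of 12 other glutathione enzymes and glutaredoxins, 7 had a line and 5 were above the median gene, led by Glo1, which detoxifies methylglyoxal, with 2401 CPM per kilobase, while Chac1, which degrades glutathione, was the lowest with 2.90. Of 21 glutathione S-transferases, which couple glutathione to foreign compounds and lipid products, 16 had a line and 15 were above the median gene, from the microsomal Mgst1 with 11809 CPM per kilobase to Gsta2 with 6.25. Of 11 genes of superoxide, quinone and haem defence, 7 had a line and all 7 were above the median gene. In that list the ferritin light chain Ftl1 was highest with 878 CPM per kilobase and the biliverdin reductase Blvra lowest with 31.2. The quinone reductase Nqo2 had 90.8 CPM per kilobase, against 6.58 for Nqo1. In these lists, windows shared between genes were not checked, so levels of genes with close relatives, such as Gsta2, are uncertain.

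**Figure D3:**
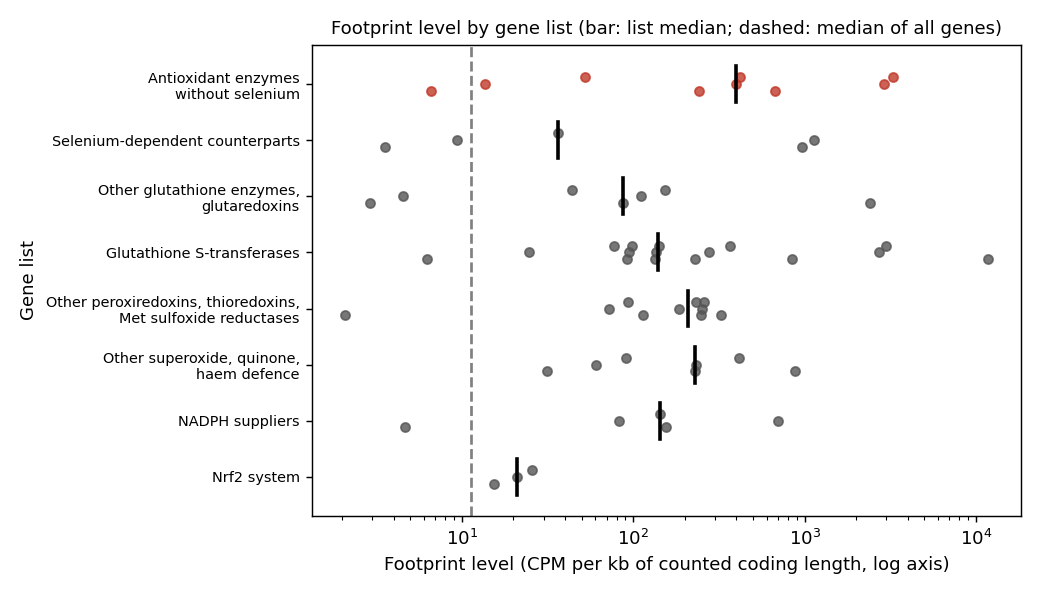
Footprint level in CPM per kilobase (log axis) of each gene with a line, by gene list, with 9 members in red, other lists in grey, a black bar at each list's median and a dashed line at the median of all listed genes. The list medians are 397 for the members, 230 for other superoxide, quinone and haem defence, and 210 for other peroxiredoxins and thioredoxins. They are 144 for NADPH suppliers, 139 for glutathione S-transferases, 87.5 for other glutathione enzymes and 20.9 for the Nrf2 system. The median of the 5 selenium-dependent counterparts is 36.5, the level of Txnrd1, within a range of 3.58 to 1139.

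The share of cysteine codons varied widely among the members. Txn1 was highest, with 6 cysteine codons of 105, or 5.71%, more than 96.6% of 7080 listed genes. The median of these genes was 1.86%, and 5 of the 9 members were above it. Prdx1 had 2.01%, and Gclm had 2.19%, with Gclc and Gsr just above it. Srxn1 had 1.29%, Cat 0.949%, Prdx6 0.893% and Nqo1 0.365%, which is 1 cysteine codon of 274.

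**Figure D4:**
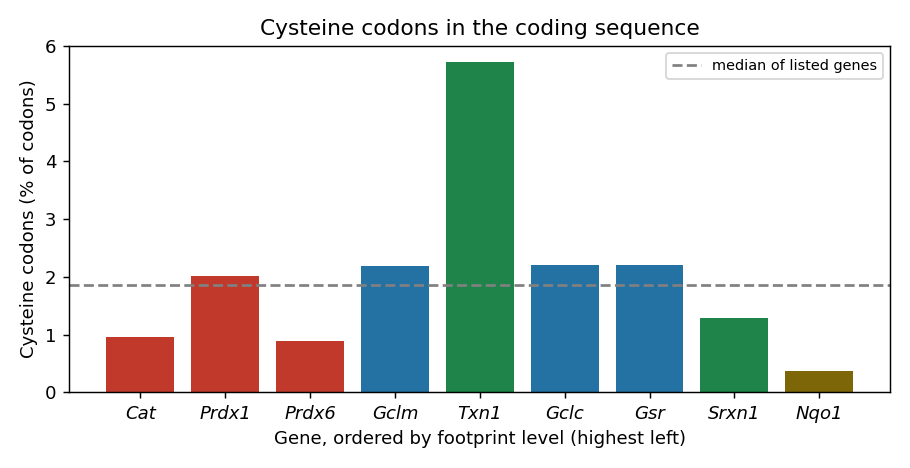
Cysteine codons as a percentage of all codons (bars from 0) for the 9 members, ordered from the highest footprint level at the left, with the median of 7080 listed genes, 1.86%, as a dashed line. Txn1 stands at 5.71% and Nqo1 at 0.365%, and the bars do not follow the order of the footprint levels.

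Promoter sequences were compared for the short core of the antioxidant response element, the site that Nrf2 binds. RefSeq promoters of the GRCm38.p6 build, from 250 bases before to 50 after the start of transcription, were matched for 7 of the 10 genes. The letters TGACNNNGC were found on either strand in a promoter of 4 of these 7 genes, Gclm, Srxn1, Sod1 and Prdx1. They were found in 12.4% of all 32851 promoters. The form TGANTCAGC, which overlaps TGACNNNGC where its N is C, was found in 2 of the 7, Srxn1 and Prdx1, and in 1.19% of all promoters. A gene counted if any of its promoters matched, while the shares are per promoter. The counts of genes and the shares are therefore in unlike units. Srxn1 and Prdx1 thus matched both forms, which a single site can do. Their footprint levels lay 213-fold apart, and a relation of motif to level was not tested. A match describes the letters in this window and shows no binding.

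The labelled tissue was checked against cell type markers. Of 10 hepatocyte markers, 8 had a line, with 145172 CPM together and Alb highest at 51734 CPM per kilobase. All 9 Kupffer cell and macrophage markers had a line with 588 CPM together, all 5 endothelial markers with 371 CPM and all 5 stellate markers with 357 CPM. Bile duct markers had 7.80 CPM over 3 genes, and the 5 red cell markers were not analysed here. Of the 4 genes listed as lymphocyte markers only Ptprc had a line, with 11.8 CPM, and this gene alone does not identify lymphocytes. Since the libraries are of whole liver, the share of each cell type in the footprints of a member was not tested.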

How the data were processed

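Groups were taken from the sample titles. Per the study's methods, the authors trimmed adapters, removed ribosomal RNA reads and aligned the rest with Bowtie, uniquely and with up to 2 mismatches, to the longest RefSeq isoform of each gene (mm9), with 15 codons at the start and 3 at the end excluded. The authors kept genes over 1 CPM in at least 3 samples and ran edgeR on them. The CPM values were normalized in edgeR by the authors, with method and versions not given in the sources used here, nor how repeat libraries were treated.

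The deposited log2 CPM is, per gene, an average over all libraries that the authors took from edgeR. The deposited table also holds 4 columns of the authors' own diet comparison (log2 fold change, fold change, p-value and adjusted p-value), which were not used. It holds 0 columns of single libraries, so depth is unknown and no interval is given. Listed genes sum to 857014 CPM, or 85.7% of the scale's total, so ranks and medians are over listed genes only. The deposited length equalled a GENCODE M1 coding sequence less 60 bases for 7093 of 7260 genes matched by symbol, or 97.7%, and is called the counted length.

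CPM was 2 to the power of log2 CPM, divided by the counted length in kilobases (Python 3.11.15, pandas 2.3.3). Calculations were tested on simulated data. Coordinates are from GENCODE M1 on the mm9 assembly. All members with a line were named, and of other lists the highest and lowest gene, with all selenium-dependent ones. Gss, Prdx4 and Nqo2 were added as direct partners or relatives after their values were seen. The members and lists were chosen with earlier results of these data known. No test was run.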

Additional observations from a re-analysis of the deposited data

How the results depend on the processing

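No paired analysis was possible because the table holds no value per mouse, and no mouse or library was left out. The planned alignment of the Prdx1 and Prdx6 proteins was not run. The count of members above the median gene was 8. It was 7 against the median of genes at log2 CPM 3 or more, and these 7 are all the members that pass that filter themselves, since Srxn1 and Nqo1 lie below it. It was also 7 without scaling by length, where Srxn1 as well as Nqo1 lay below the median gene. The number of members with a line was 9 also with older symbols.

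The median share of listed genes below a member was 96.3%. It was 96.5% with 18 further codons taken off the length, which is already trimmed (1 gene had no length left), 94.5% for the 9 members against genes at log2 CPM 3 or more, 95.6% without scaling by length and 95.8% over the whole coding sequence, an alternative chosen after seeing the data. The span from Nqo1 to Cat was 483-fold with 18 codons less, 998-fold without scaling by length, 645-fold after taking off the smallest CPM of the table and 520-fold over the whole coding sequence. The ratio of Gclc to Gclm was 0.574 per kilobase, 0.549 with 18 codons less and 0.599 over the whole coding sequence, and it turned to 1.39 without scaling by length, because Gclc is the longer gene. The members' share of the summed CPM was 1.29% without the 10 genes of highest CPM.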

Other observations

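Enzymes that supply NADPH, the electron source of Gsr and of thioredoxin reductase, differed widely in footprint level. Of 9 such genes, 5 had a line and 4 were above the median gene. The cytosolic isocitrate dehydrogenase Idh1 had 700 CPM per kilobase, the highest of them, and G6pdx, the first enzyme of the pentose phosphate pathway, had 4.67, the lowest. Of 8 genes of the Nrf2 system, 3 had a line, and all 3 lay between the 15.4 CPM per kilobase of Bach1, a repressor at Nrf2 sites, and the 25.5 of Cul3, the ubiquitin ligase scaffold that works with Keap1. Nfe2l2, which encodes Nrf2, and Keap1 were not analysed here.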
